A study of Saccharomyces cerevisiae with 4 samples.

Results

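Glycerol metabolism of Saccharomyces cerevisiae was followed through 10 genes: GPD1, GPD2 and HOR2 of glycerol synthesis, GCY1, DAK1, DAK2, GUT1 and GUT2 of glycerol use, and FPS1 and STL1 of glycerol transport. They were taken by gene symbol or alias from the array annotation, 1 probeset per gene, out of 5449 S. cerevisiae genes measured, and all 10 had a probeset. HOR2 is listed there under its other name, GPP2. The strain was BY4741, a haploid laboratory strain (mating type a), in exponential growth in YPD, a rich glucose medium, at 30°C with shaking. A control group of 2 cultures received the vehicle for 1 h, and the other 2 cultures received CG-1521, a histone deacetylase inhibitor, at 50 μM for 1 h. Each culture was hybridised to 1 array, and the replicates are described as independent biological experiments.

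Yeast makes glycerol from dihydroxyacetone phosphate, a glycolytic intermediate. A glycerol 3-phosphate dehydrogenase (Gpd1 or Gpd2) reduces it with NADH, and a phosphatase (Gpp1 or Hor2) releases glycerol. Glycerol balances the osmotic pressure of the medium, and its synthesis reoxidises surplus NADH during fermentation. When glycerol serves as carbon source, it is phosphorylated by Gut1 and oxidised by Gut2 in mitochondria. A second route oxidises it through Gcy1 to dihydroxyacetone, which Dak1 and Dak2 phosphorylate. Fps1 is the channel through which glycerol leaves the cell, and Stl1 is a symporter that takes it up with protons.

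All values are log2 values on the deposited scale, made by the authors with RMA, a procedure that brings the arrays to a common distribution and combines a gene's probes into 1 value. Array medians over all genes lay between 9.82 and 9.89, and array background, the 95th percentile of probesets of another yeast species on the same array, lay between 2.42 and 2.45. All 10 glycerol genes exceeded background on all 4 arrays. Nearly all genes did so, between 5441 and 5443 of the 5449 S. cerevisiae genes on each array. Passing this background therefore says little about whether a gene is expressed. Arrays correlated across genes, which are not independent replicates, at 0.994 within the control group and 0.983 within the CG-1521 group. Of the markers deleted in BY4741, URA3 and MET15 lay below background in both groups, with means of at most 1.39 and 1.96. LEU2 had a control mean of 2.25 and a CG-1521 mean of 2.93, and it exceeded background on 2 of the 4 arrays. Its log2 fold change of 0.68 passed the threshold used below (limma adjusted p = 0.0489), although the signal is near background. URA3 and MET15 did not pass. HIS3 had means of 10.83 and 10.23, far above background, and its log2 fold change of -0.60 passed (limma adjusted p = 0.0217). The BY4741 allele of HIS3 is a partial deletion, and whether the probes lie in the part that remains was not tested. The a-cell receptor gene STE2 had a control mean of 11.96, and the alpha-cell genes STE3 and MF(ALPHA)1 had control means of 4.90 and 3.62, above background. STE2 (-0.79, limma adjusted p = 0.0285) and MF(ALPHA)1 (-0.75, limma adjusted p = 0.0377) passed as lower with CG-1521, and STE3 did not pass.

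With CG-1521, 5 of the 10 glycerol genes rose (GPD1, HOR2, GCY1, DAK1 and GUT2), 1 fell (GPD2) and 4 did not pass (DAK2, GUT1, FPS1 and STL1). A gene passed at a limma p-value, adjusted by Benjamini and Hochberg over all 5449 genes, below 0.05. Over all genes 12.9% rose and 16.8% fell by this rule, 29.7% in all. The groups did not overlap for 8 of the 10 genes, against 72.3% of all genes. The median log2 fold change of the 10 genes was 0.64, against -0.04 over all genes, and their median absolute log2 fold change was 0.66, against 0.32. Each median of the 10 genes is the mean of 2 middle values, and 1 of these was STL1 (0.79), whose CG-1521 arrays disagreed in direction. By role, 2 of 3 synthesis genes rose and the third fell, 3 of 5 genes of glycerol use rose, and 0 of 2 transport genes passed (limma, also 0 at an unadjusted p below 0.05). The calls needed both control arrays: without control replicate 1 or without control replicate 2, 0 of the 10 genes passed in limma, although 5 were higher and 1 was lower at an unadjusted p below 0.05 in each case. At that unadjusted threshold the share of all genes was 25.7% without control replicate 1, 27.6% without control replicate 2 and 44.7% with all 4 arrays. Leaving out either control array also removed most adjusted calls over all genes, so the loss is not particular to the glycerol genes. The log2 fold changes of the 6 called genes kept their sign in every alternative in which they were followed. For groups that do not overlap, leaving out 1 array cannot turn the sign. The block, the variance prior, the filter and the probeset settings left these estimates unchanged. Only the scaling alternatives could therefore have turned a sign.

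**Figure D1:**
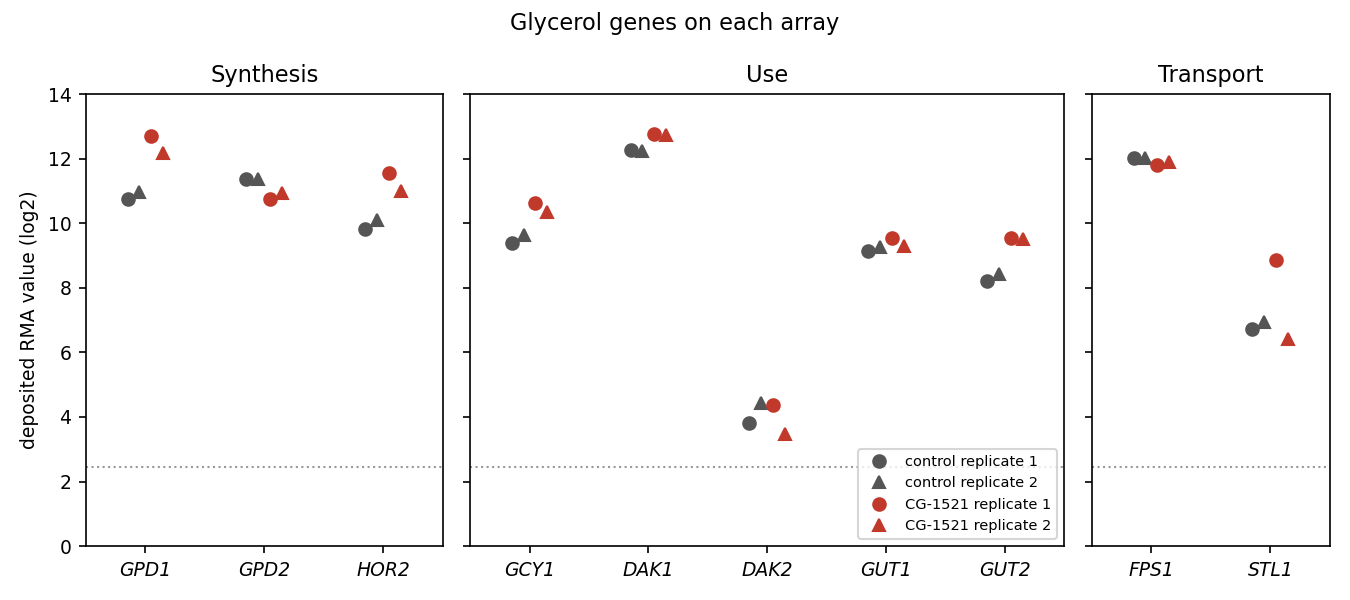
Deposited log2 value (vertical axis) of each glycerol gene (horizontal axis) on the 2 control arrays (grey) and the 2 CG-1521 arrays (red), with replicate 1 as circles and replicate 2 as triangles. The dotted line is the highest array background, 2.45. GPD1, HOR2, GCY1, DAK1 and GUT2 have both red points above both grey points, GPD2 has both below, and the red points of STL1 lie on opposite sides of the grey ones.

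The synthesis genes moved apart. GPD1, the glycerol 3-phosphate dehydrogenase that yeast induces under osmotic stress, stood at 10.74 and 10.97 in the control cultures and at 12.71 and 12.16 with CG-1521. Both CG-1521 cultures were above both controls by more than the gap between replicates, and CG-1521 replicate 1 was the higher. GPD1 rose by 1.58 on the log2 scale (SE 0.22, n = 2 each, limma adjusted p = 0.0138), a 2.99-fold difference. In RNA of a whole culture, a change in every cell and a change in the share of cells that express a gene cannot be told apart. In an order of all 5449 genes from the largest rise down, GPD1 was at place 90.

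GPD2, its isoenzyme, which is known for NADH balance during growth without oxygen, went the opposite way. It stood at 11.37 on both control arrays and at 10.74 and 10.94 with CG-1521. The controls nearly coincided, and both CG-1521 values lay below them. GPD2 fell by 0.53 on the log2 scale (SE 0.11, n = 2 each, limma adjusted p = 0.0315), a 1.44-fold decrease. The call was lost without CG-1521 replicate 1 (adjusted p = 0.054), and it was also lost with the replicate number as a block (adjusted p = 0.0763) or with all probesets fitted together (adjusted p = 0.0711).

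HOR2, the glycerol 3-phosphate phosphatase named for its response to high osmolarity, rose as GPD1 did. The control cultures gave 9.83 and 10.10, and CG-1521 replicates 1 and 2 gave 11.55 and 11.00. The groups did not overlap, and CG-1521 replicate 1 was again the higher. The fitted log2 difference was 1.31 (SE 0.22, n = 2 each, limma adjusted p = 0.0198), a 2.48-fold rise. Its paralog GPP1, which encodes the other glycerol 3-phosphate phosphatase and is not among the 10 genes, gave 12.44 and 12.63 in the control cultures, then 11.98 and 12.13 in the CG-1521 cultures. GPP1 fell by 0.48 on the log2 scale (SE 0.12, limma adjusted p = 0.0468). At both steps of synthesis 1 gene rose and its isoenzyme fell. The fall of GPP1 lost its call without CG-1521 replicate 1 (adjusted p = 0.0967), with the replicate block (adjusted p = 0.0847) and with all probesets fitted together (adjusted p = 0.101).

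The balance within each pair was followed as the difference of the 2 log2 values on the same array. Probesets differ in their response, so the change of this difference between groups is used and its size is not a ratio of transcripts. The GPD1 minus GPD2 difference was -0.63 and -0.40 in the controls and 1.97 and 1.22 with CG-1521, so it moved by 2.11, a 4.32-fold change of the balance towards GPD1. The HOR2 minus GPP1 difference was -2.61 and -2.53 in the controls and -0.43 and -1.14 with CG-1521, and it moved by 1.79, a 3.45-fold change towards HOR2. For both pairs the groups did not overlap, and the change exceeded the SD within either group, which was at most 0.53 for GPD1 and GPD2 and at most 0.50 for HOR2 and GPP1. A two-sided exact permutation test of 2 cultures against 2 cannot give a p below 0.333, and it gave 0.333 for each of these pairs.

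**Figure D2:**
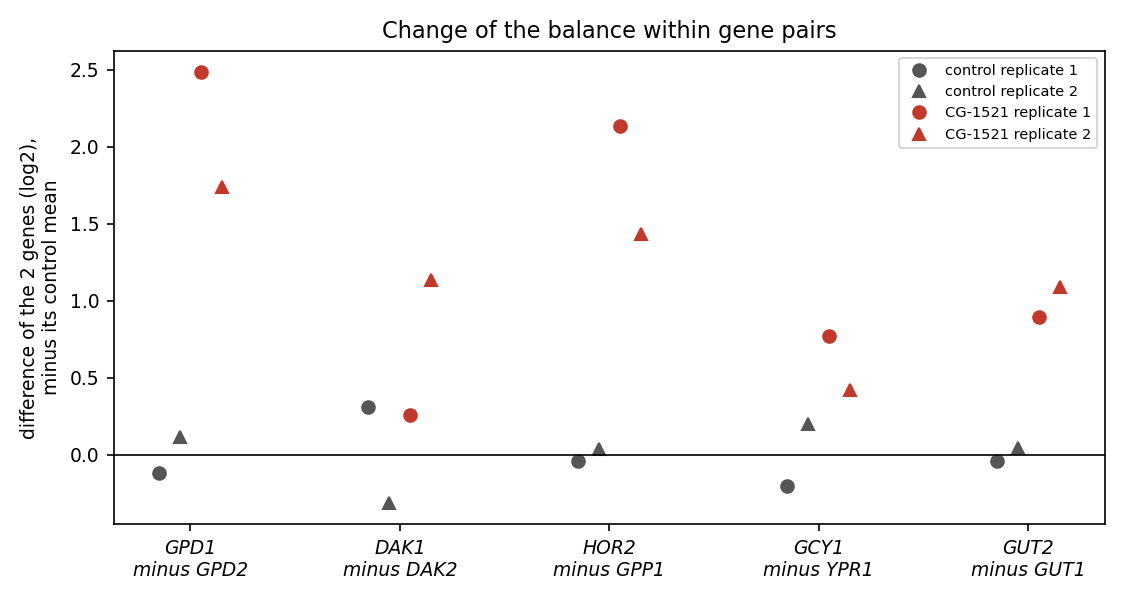
Difference between the log2 values of 2 genes on the same array, minus the mean of that difference in control (vertical axis, log2), for 5 gene pairs (horizontal axis). Points are single arrays, control in grey and CG-1521 in red, replicate 1 as circles and replicate 2 as triangles. The red points stand above the grey ones for GPD1 and GPD2, HOR2 and GPP1, GCY1 and YPR1, and GUT2 and GUT1, and overlap them for DAK1 and DAK2.

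On the route through dihydroxyacetone, GCY1 and DAK1 rose, and DAK2 did not pass. GCY1, an aldo-keto reductase that can oxidise glycerol, was at 9.38 and 9.64 in the controls and reached 10.61 and 10.33 with CG-1521. Both CG-1521 values exceeded both controls. GCY1 rose by 0.97 on the log2 scale (SE 0.16, n = 2 each, limma adjusted p = 0.0184), or 1.95-fold. Its close relative YPR1, a reductase of the same family, was at 11.37 and 11.22 in the controls and reached 11.64 and 11.70 with CG-1521. The YPR1 log2 fold change of 0.37 did not pass (SE 0.11, limma adjusted p = 0.0602). The GCY1 minus YPR1 difference moved by 0.59, with SDs of 0.29 in control and 0.25 with CG-1521 (two-sided exact permutation p = 0.333, the smallest possible). It was 0.39 without control replicate 1 and 0.80 without control replicate 2.

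DAK1, a dihydroxyacetone kinase, was measured at 12.25 on both control arrays and at 12.76 and 12.74 with CG-1521. Replicates were within 0.0232 of each other in both groups, and the gap of the CG-1521 arrays was the smallest of the 10 genes. DAK1 rose by 0.50 on the log2 scale (SE 0.09, n = 2 each, limma adjusted p = 0.0241), or 1.41-fold. The DAK1 call was lost with the replicate block (adjusted p = 0.0769) and with all probesets fitted together (adjusted p = 0.058).

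DAK2, the other dihydroxyacetone kinase gene, gave dim signal, with array background at no more than 2.45. Its control mean of 4.11 lay between those of the alpha-cell genes MF(ALPHA)1 (3.62) and STE3 (4.90) in this strain of mating type a. Whether the DAK2 signal stands for transcript was not tested. Control replicates 1 and 2 gave 3.80 and 4.42, and CG-1521 replicates 1 and 2 gave 4.37 and 3.47. The groups overlapped, and no direction could be read. Its log2 fold change was -0.19, with a 95% interval from -1.16 to 0.77 (limma adjusted p = 0.708), so a change of the size seen for DAK1 in either direction lies within the interval. Its sign turned when control replicate 2 (0.12) or CG-1521 replicate 2 (0.26) was left out. The DAK1 minus DAK2 difference overlapped between the groups (two-sided exact permutation p = 0.667), and its change ran from 0.26 to 1.13 with 1 array left out.

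Of the GUT pair, GUT2 rose and GUT1 did not pass. GUT2, the mitochondrial glycerol 3-phosphate dehydrogenase that feeds electrons into the respiratory chain, gave 8.20 and 8.43 in the control cultures and 9.55 and 9.50 after CG-1521. The CG-1521 cultures lay close together, and both were well above the controls. GUT2 rose by 1.21 on the log2 scale (SE 0.12, n = 2 each, limma adjusted p = 0.00916), or 2.32-fold, with the smallest adjusted p of the 10 genes.

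GUT1, the glycerol kinase that supplies the substrate of Gut2, was at 9.13 and 9.28 in the control cultures and at 9.55 and 9.30 after CG-1521. The lower CG-1521 value, that of replicate 2, was within 0.0202 of control replicate 2. The estimate of 0.22 (log2) had a 95% interval from -0.13 to 0.57 (limma adjusted p = 0.264). The GUT2 minus GUT1 difference was -0.93 and -0.84 in the controls and 0.01 and 0.20 with CG-1521. It moved by 0.99 without overlap, with SDs of 0.06 in control and 0.14 with CG-1521 (two-sided exact permutation p = 0.333, the smallest possible).

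Neither transport gene passed. FPS1, the glycerol channel, was at 12.02 on both control arrays and at 11.79 and 11.88 with CG-1521. Both CG-1521 values were slightly below the controls. Its log2 fold change was -0.18, with a 95% interval from -0.44 to 0.08 (limma adjusted p = 0.221).

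STL1, the glycerol and proton symporter, which glucose represses and osmotic shock induces, gave opposite answers in the CG-1521 cultures. It was at 6.74 and 6.95 in control, at 8.85 in CG-1521 replicate 1 and at 6.42 in CG-1521 replicate 2. Replicate 1 was far above both controls, and replicate 2 was below both. The gap of 2.43 between the CG-1521 arrays was the third largest of all 5449 genes, and 99.9% of genes had a smaller gap. Its log2 fold change of 0.79 had a 95% interval from -1.31 to 2.89 (limma adjusted p = 0.482). The direction follows the array that is kept: the log2 fold change was 2.004 without CG-1521 replicate 2 and -0.43 without CG-1521 replicate 1. Limma's adjusted p of 0.00904 and 0.0949 in these fits takes the spread from the controls and the other genes and assumes that the lone CG-1521 array varies like them, so neither supports a direction.

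**Figure D3:**
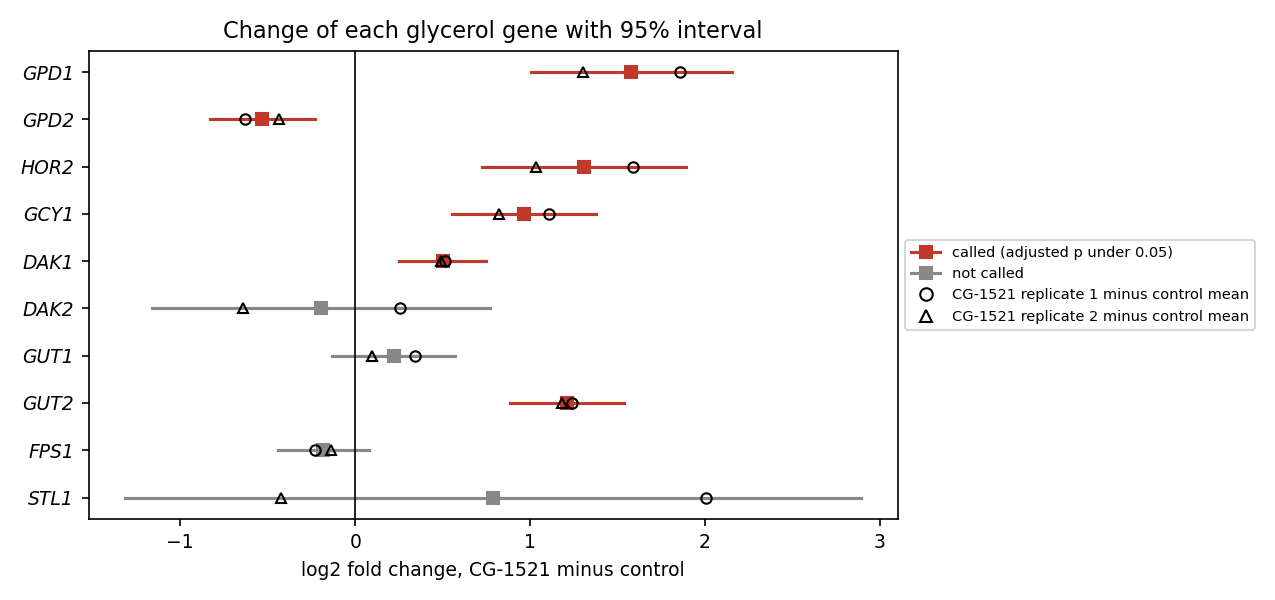
Log2 fold change, CG-1521 minus control (horizontal axis), of the 10 glycerol genes, with squares for the limma estimate, lines for its 95% interval and red for called genes. Open circles and triangles are CG-1521 replicates 1 and 2, each minus the control mean. The replicates nearly coincide for DAK1 and GUT2 and lie on opposite sides of 0 for DAK2 and STL1.

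Between the CG-1521 cultures, replicate 1 was above replicate 2 for 8 of the 10 genes, including all 5 that rose. Over all genes this held for 50.9%, and over all genes called higher for 62.0%. For GPD1 and HOR2 the gap was 0.55 each, and 90.5% of all genes had a smaller one. In the control group GPD1 and HOR2 were lower in replicate 1 than in replicate 2, by differences of -0.24 and -0.27. Poly-A spikes, foreign transcripts added to the RNA, moved the same way: their median was higher in CG-1521 replicate 1 than in replicate 2 by 0.65, and the control replicates differed by -0.51. Hybridization spikes had differences of 0.24 and -0.42. The other genes that rose had CG-1521 gaps of 0.28 (GCY1), 0.06 (GUT2) and 0.02 (DAK1). The part of either kind of spike in these gaps, or in the changes of the genes between the groups, was not tested.

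**Figure D4:**
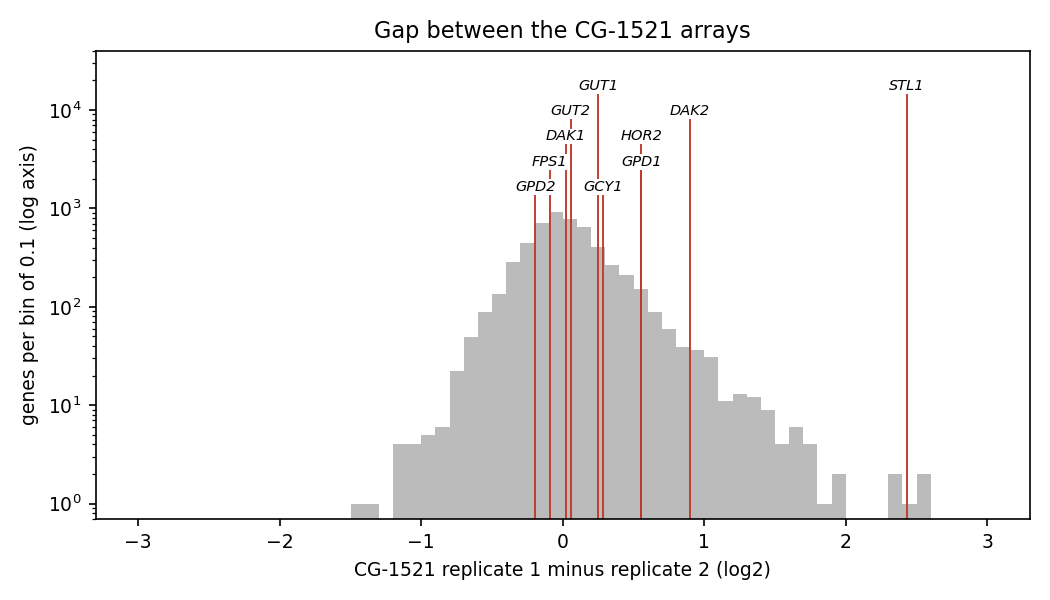
Histogram of the difference between CG-1521 replicate 1 and replicate 2 (horizontal axis, log2) over all 5449 genes, with the number of genes per bin on a log axis. Red lines mark the 10 glycerol genes. STL1 lies at 2.43, far to the right, while most of the others fall in the body of the distribution.

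Among 31 genes that share its steps, substrates or regulators, 1 rose and 3 fell, and the other 27 did not reach the threshold. That is 12.9% called, against 29.7% of all genes. At an unadjusted p below 0.05, 9 were higher and 5 lower, which is 45.2% of the list against 44.7% of all genes. The groups did not overlap for 22 of the 31 genes, also near the 72.3% of all genes. The adjusted counts moved with the setting: 5 rose and 6 fell without CG-1521 replicate 2, 4 rose and 4 fell with an intensity trend, 5 rose and 2 fell with crossed replicate numbers as a block, and 0 passed without either control array. Counts over all genes moved too, from 703 higher and 917 lower to 871 and 1105 with the trend and 842 and 978 with the crossed block. They were also larger without CG-1521 replicate 2 and far smaller without either control array. GPT2, an acyltransferase that puts glycerol 3-phosphate into lipids, rose by 0.53 (SE 0.09, limma adjusted p = 0.0219), from 9.77 and 9.79 to 10.31 and 10.30. Beside GPP1, the genes that fell were GUP2, a membrane protein related to the acyltransferase Gup1, by 0.90 (SE 0.20, adjusted p = 0.0354), and SHO1, an osmosensor upstream of the Hog1 kinase, by 0.57 (SE 0.14, adjusted p = 0.0386). None of these neighbours kept its call without a control array, and with the replicate block GUP2 alone of the 4 was called (adjusted p = 0.032).

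The high-osmolarity glycerol pathway, whose kinase Hog1 drives GPD1, HOR2 and STL1 under osmotic stress, had 1 call among its 9 listed genes, the fall of SHO1, or 11.1% against 29.7% of all genes. At an unadjusted p below 0.05, 2 of the 9 passed, or 22.2% against 44.7% of all genes: SHO1 and SMP1, a transcription factor, whose log2 fold change was 0.59 (SE 0.17, limma adjusted p = 0.0578). HOG1 had a log2 fold change of -0.14 (95% interval -0.45 to 0.16) and the factor HOT1 one of -0.17 (-0.58 to 0.23). None of the 7 regulators of glycerol use was called in limma, against 29.7% of all genes, and 2 passed without adjustment, against 44.7%. These were ADR1, an activator of GUT1 and other glucose-repressed genes, with 0.65 (adjusted p = 0.0896), and CAT8, an activator of gluconeogenic genes, with 0.95 (adjusted p = 0.0926). Phosphorylation, on which Hog1 signalling and closure of Fps1 depend, is not seen on these arrays.

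**Figure D5:**
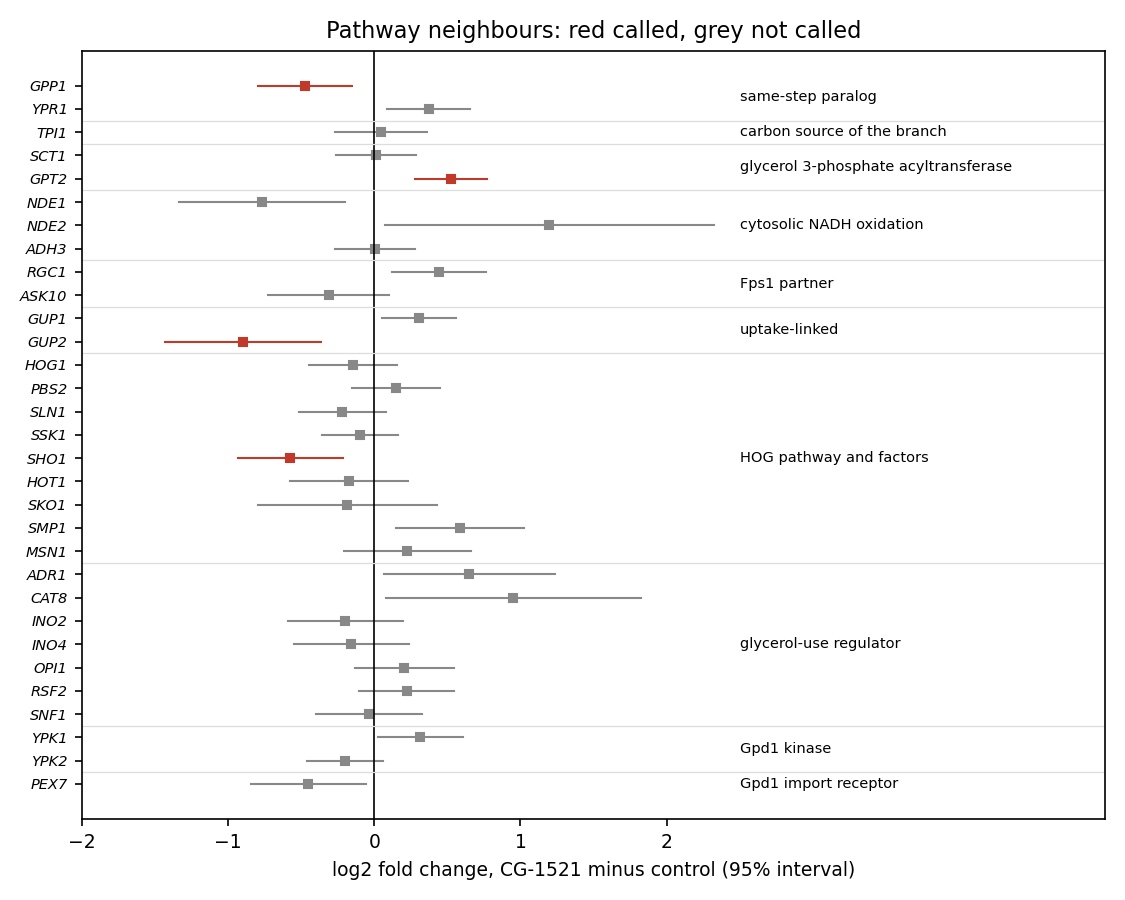
Log2 fold change, CG-1521 minus control (horizontal axis), of 31 genes around the glycerol pathway with 95% intervals, grouped by role, called genes in red. GPP1, GUP2 and SHO1 lie below 0 and GPT2 above 0, and the other 27 are grey.

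GPD1, the called gene with the largest change, had its nearest profiles in GND2, MUM3 and UGX2. Likeness was the Euclidean distance over the 4 arrays, after subtracting each gene's own control mean, and it was 0.07 for GND2, 0.11 for MUM3 and 0.12 for UGX2. GND2 encodes the minor isoenzyme of 6-phosphogluconate dehydrogenase. Their log2 fold changes, 1.59, 1.55 and 1.63, are near that of GPD1 because the genes were chosen for this likeness.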

How the data were processed

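Affymetrix Yeast Genome 2.0 arrays of 4 cultures were analysed, grouped by sample title into 2 control and 2 CG-1521. The deposited log2 values per probeset were made by the authors with Affymetrix Expression Console and RMA, per the submitters' processing notes, with versions and settings not given in the sources used here. RMA gives the arrays a common distribution, so a shift shared by all transcripts cannot be seen.

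Of 10928 probesets, 5498 matched S. cerevisiae genes by gene identifier. The R64 annotation gave names and gene order. For 47 genes with several probesets the highest mean was kept, leaving 5449 genes; each glycerol gene had 1 probeset. Background used 1746 probesets of Schizosaccharomyces pombe genes.

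The groups were compared by limma 3.58.1, run in R 4.3.3 (lmFit, eBayes, no block), two-sided, with 2 residual and 2.69 prior degrees of freedom. The procedure was run on simulated data with independent noise drawn from limma's own variance prior. Such a run cannot show whether these arrays follow that prior. Precision is limited by the number of arrays; the SE of a log2 fold change had a median of 0.12 over all genes. Genes, lists and tests were chosen with earlier results of these data known. All 10 genes, called neighbours and the 3 nearest profiles were named by rule; HOG1, HOT1, SMP1, ADR1, CAT8 and YPR1 were added after their values were seen. Alternatives covered left-out arrays, a replicate block, scaling, the variance prior, filters and probeset choice.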

Additional observations from a re-analysis of the deposited data

How the results depend on the processing

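Leaving out 1 array at a time gave log2 fold changes from 1.30 to 1.86 for GPD1, -0.63 to -0.43 for GPD2, 1.03 to 1.59 for HOR2, 0.82 to 1.11 for GCY1, 0.49 to 0.51 for DAK1, -0.64 to 0.26 for DAK2, 1.09 to 1.33 for GUT2 and -0.43 to 2.004 for STL1. A group left with 1 array was assumed to vary like the rest. The changes of the pair differences ran from 1.74 to 2.48 for GPD1 minus GPD2, 1.43 to 2.14 for HOR2 minus GPP1 and 0.89 to 1.09 for GUT2 minus GUT1. The counts of glycerol genes then ran from 0 to 6 higher and 0 to 1 lower, those of the 31 neighbours from 0 to 5 higher and 0 to 6 lower, and those of all genes from 50 to 1001 higher and 16 to 1133 lower, the lowest without a control array. With the replicate number as a block, GPD2 (-0.53, adjusted p = 0.0763) and DAK1 (0.50, adjusted p = 0.0769) were not called. The counts were 4 higher and 0 lower for glycerol genes, 0 and 1 for neighbours, and 369 and 450 for all genes. Same-numbered arrays deviated in opposite directions (correlation -0.263 across genes), and the labels do not say that a number marks a shared day, so the block is an alternative. A block with crossed numbers, chosen after seeing the data, gave 5 glycerol genes higher and 1 lower, 5 and 2 neighbours, and 842 and 978 of all genes. With all probesets fitted together, GPD2 (-0.53) and DAK1 (0.50) were not called, and the counts were 4 and 0, 0 and 0 (9 and 5 at an unadjusted p below 0.05), and 334 and 444. Neighbours called higher numbered 3 with median centring, 3 with quantile normalization over S. cerevisiae genes and 4 with an intensity trend. The cause of these shifts was not tested. The robust prior, the background filter and the lowest probeset changed no call of the 10 genes. Each of these genes had 1 probeset and exceeded background on all 4 arrays. The filter and the probeset choice could therefore act on their calls only through the other genes.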

Other observations

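In the gene order of the R64 annotation, STL1 lies beside FIT1, with 6 protein-coding genes between STL1 and the chromosome end. FIT1, a cell wall mannoprotein of iron uptake, rose by 3.70 (limma adjusted p = 0.00676). GPM2, a homolog of phosphoglycerate mutase next to GPD1 in the same order, rose by 1.52 (limma adjusted p = 0.00745). Of 17 measured genes that flank the 10 glycerol genes, 4 rose, 3 fell and 10 were not called. Over all genes, 12.9% rose and 16.8% fell by the same rule, 29.7% in all. Some went against the gene they flank: RIO1, beside GCY1, fell by 0.94 (limma adjusted p = 0.0104), and ARG1, beside GPD2, rose by 0.50 (limma adjusted p = 0.0306). The flanking genes named here were chosen after their values were seen.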
